A study of Mus musculus with 14 samples.

Results

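The genes of fatty acid oxidation and ketogenesis were followed through mouse liver regeneration as a list of 36 genes, 20 mitochondrial, 11 peroxisomal and 5 in other places of the cell. Each gene was read from the probe sets that name it alone, and the probe set with the highest mean intensity over all arrays stood for it. By this rule 35 of the 36 members were measured, out of 12393 genes with such a probe set, and all 35 were bright enough to be tested. Acsl1 was not analysed here. The samples were total RNA of mouse liver on 14 arrays with a biotin label, in 7 groups of 2, namely normal liver and liver taken 4, 8, 12, 36, 48 or 72 h after partial hepatectomy (PHx), in which a portion of the organ is cut away and the remainder regrows. Livers of 4 to 6 mice were pooled for an RNA extraction. The labels give no strain, sex or age and no sham-operated group, so the operation itself and the regrowth cannot be told apart. Nothing states that paired arrays stem from separate pools of mice, and the p-values may therefore reflect technical spread alone.

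Mitochondria take up long-chain fatty acids as carnitine esters and shorten them in a cycle of oxidation, hydration, oxidation and thiolysis, and the liver turns much of the resulting acetyl-CoA into ketone bodies for other tissues. Peroxisomes run a related cycle on very long and branched chains and pass shortened products on. In liver many genes of both cycles are targets of PPARα, a nuclear receptor that pairs with RXR and binds tandem copies of a short repeat.

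The RefSeq promoter table (GRCm38.p6) held 30 of the 36 members. A strict form of the PPARα-RXR motif, AGGTCA followed after 1 base of any kind by a second AGGTCA, was searched on both strands from 250 bases before to 50 bases after the start site. It was found in 13 of 32851 promoters (0.0396%) and in 0 of the 30 members. A looser form, with AGGNCA (N for any base) in place of each AGGTCA, which includes the strict form, was found in 125 promoters (0.381%). Its match among the members was in the promoter of Fabp1, the liver fatty acid binding protein, on the minus strand with its first base at -67. The 250 bases before the start of Fabp1 (chr6:71199629-71199878, plus strand) are shown with this match in capitals, as the case where the searched letters occur in a member. The same stretch is shown for Acaa1b (chr9:119157094-119157343, minus strand), Eci2 (chr13:34994145-34994394, minus strand) and Pex11a (chr7:79743132-79743381, minus strand), because these are the 3 members that changed over the time course, and they carry no capitals because neither form of the motif nor a single AGGTCA on either strand was found there.
Fabp1: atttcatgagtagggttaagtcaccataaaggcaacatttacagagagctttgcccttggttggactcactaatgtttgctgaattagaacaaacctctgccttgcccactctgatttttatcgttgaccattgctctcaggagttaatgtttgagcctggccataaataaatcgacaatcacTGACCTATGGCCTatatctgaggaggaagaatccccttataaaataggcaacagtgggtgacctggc
Acaa1b: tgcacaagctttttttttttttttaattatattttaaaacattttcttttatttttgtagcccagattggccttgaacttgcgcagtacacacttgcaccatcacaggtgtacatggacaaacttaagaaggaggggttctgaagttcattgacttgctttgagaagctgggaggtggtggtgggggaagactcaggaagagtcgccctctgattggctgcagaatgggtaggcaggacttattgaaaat
Eci2: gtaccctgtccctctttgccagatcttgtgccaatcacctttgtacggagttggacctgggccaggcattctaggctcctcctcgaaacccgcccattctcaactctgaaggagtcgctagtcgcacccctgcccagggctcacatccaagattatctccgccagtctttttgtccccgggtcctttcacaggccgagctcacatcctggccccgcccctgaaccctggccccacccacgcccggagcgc
Pex11a: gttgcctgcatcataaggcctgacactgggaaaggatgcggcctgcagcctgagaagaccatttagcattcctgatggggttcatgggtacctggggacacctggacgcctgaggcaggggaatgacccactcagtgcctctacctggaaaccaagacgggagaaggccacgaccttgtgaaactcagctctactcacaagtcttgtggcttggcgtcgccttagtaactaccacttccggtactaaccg
A single AGGTCA on either strand was found in the same 250 bases of 7 of the 30 members and of 4607 of the 32851 promoters (14%). A match describes letters in a window, and no match says only that these letters are not there.

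The deposited values are intensities on a linear scale, already scaled to each other, with array medians between 127.8 and 233.1. Across probe sets, which are not independent of each other, the correlation of paired arrays lay between 0.910 (12 h) and 0.970 (4 h). On 4 arrays, the second at 8, 12, 36 and 72 h, there was a 5′ to 3′ signal ratio of the pyruvate carboxylase control of 0.0909 to 0.137, against 0.305 to 0.584 on the remaining 10. Values without these 4 arrays are given beside the calls. Without them the 8, 12, 36 and 72 h groups hold 1 array each, so adjusted p can rise while a change keeps its size. Of 7 hepatocyte markers 6 were measured, all above background on all arrays, with summed intensities of 132922 to 286955, and none passed the test at any time. At 36 h their sum, 162943 to 167440, and at 72 h, 175887 to 191745, lay below the 209431 to 261418 of normal liver. At 48 h it was 132922 on 1 array and 212606 on the other. Alb, Apoa1, Ttr and Fgb make up most of this sum, and the markers differed. Apob was 8472 and 7170 in normal liver, 7061 and 14738 at 36 h, and 5925 and 9762 at 72 h. Tat was 15140 and 15968 in normal liver and 27179 and 28131 at 4 h. Of 8 Kupffer cell markers, 1 was higher at 4 and 36 h, 1 higher and 2 lower at 8 h, and 1 higher and 3 lower at 12 h, with sums of 9659 to 10661 in normal liver, 6806 to 7287 at 8 h and 6081 to 8188 at 12 h. Markers of other tissues rose at early times, 15 of 17 tested muscle markers at 4 h and 11 of 11 pancreatic acinar markers at 8 h. The summed intensity of 20 skeletal muscle markers was 842 to 1858 in normal liver, 21770 to 23852 at 4 h and 13834 to 14988 at 8 h. The sum of 11 pancreatic acinar markers was 1264 to 2356 in normal liver, 252220 to 272504 at 8 h, and 1225 on 1 array and 42774 on the other at 36 h. Their part in the members' values was not tested. In bulk tissue, fewer cells of a type and less RNA per cell cannot be told apart.

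The members were abundant. Their mean intensities ran from 169 for Acot2 to 35382 for Fabp1, and 29 of the 35 had a mean of at least 1000. Of the 35, 34 were above the background of every array, and Acot3 was above it on 12. The largest change at any time reached 2-fold, 1 on the log2 scale, in 2 members, Bdh1 and Acaa1b, lay between 1.5- and 2-fold in 18 and under 1.5-fold in 15. Each change is the log2 intensity less that of normal liver, 2 arrays against 2, with its standard error (SE) from limma, and a member passed when its adjusted p over all 13576 probe sets tested was under 0.05.

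At 4 h none of the 35 members passed, against 2.42% of all probe sets tested (1.6% higher, 0.825% lower), and 2 were at an unadjusted p under 0.05. At 8 h 1 passed, Bdh1, which fell (2.86% of members, against 9.59% of all probe sets, 4.87% higher and 4.72% lower). At 12 h 2 passed (5.71%, against 12.2%, of which 5.97% higher and 6.21% lower), as Bdh1 fell and Eci2 rose. At 36 h 1 passed (2.86%, against 4.16%, 2.28% higher and 1.88% lower) and at 48 h 1 (2.86%, against 2.32%, 1.64% higher and 0.685% lower), in both cases a fall of Acaa1b. At 72 h none passed (against 2.49%, 1.62% higher and 0.869% lower), with 7 at an unadjusted p under 0.05. As 1 call is 2.86% of the members, their share was within 1 member of that of all probe sets at 4, 36, 48 and 72 h. At 8 and 12 h it was lower by a few members.

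The members' median change was below that of all probe sets at each time. From 4 h to 72 h it was -0.12, -0.25, -0.26, -0.14, -0.29 and -0.28. The medians of all probe sets tested were -0.0025, 0.09, 0.12, 0.07, 0.12 and 0.11 at the same times. These 6 medians share the same 2 normal arrays, and 25 of the 35 members were higher on normal replicate 2 than on replicate 1, with a median ratio of 1.18 between them. That ratio was 0.874 over all probe sets tested and 1.09 over the 3194 with a mean of at least 1000. Under quantile normalization, which brought the medians of all probe sets to between -0.02 and 0.02, the members' medians were -0.16, -0.19, -0.28, -0.06, -0.13 and -0.07.

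**Figure D1:**
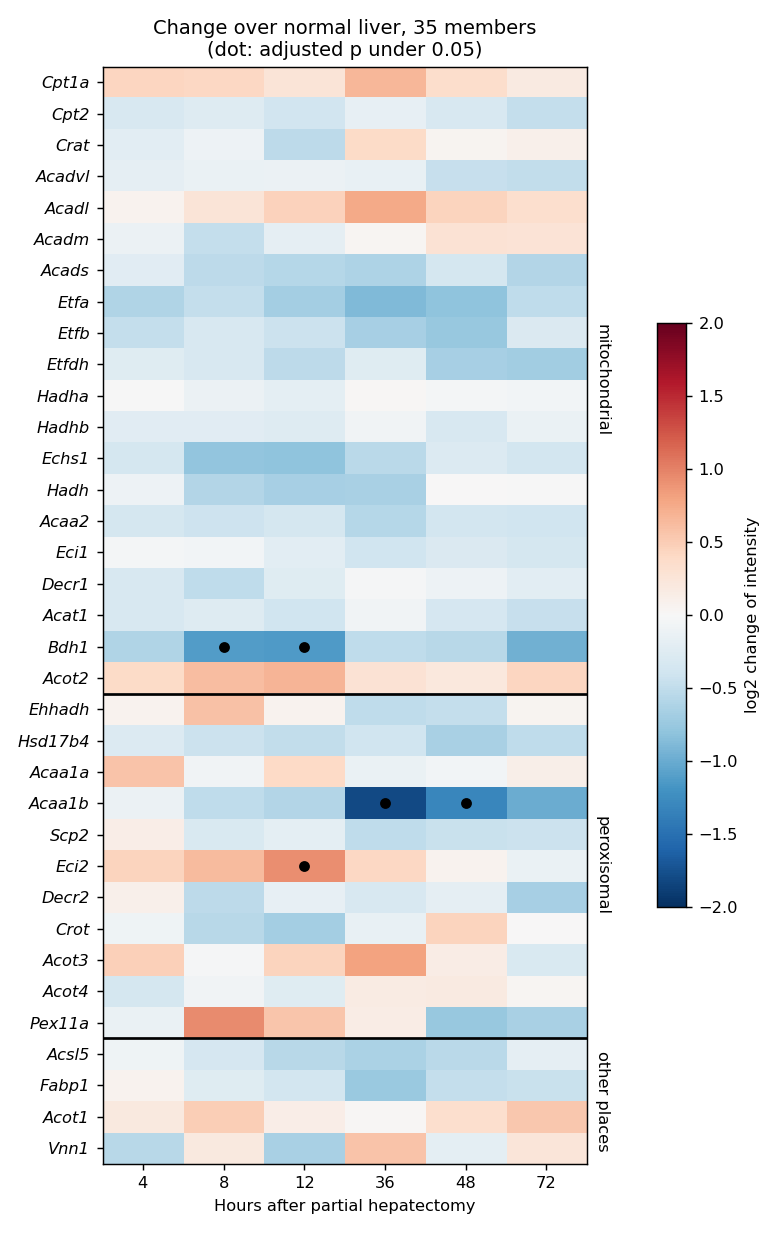
Log2 change of intensity over normal liver for the 35 measured members (rows, grouped by compartment) at 6 times after partial hepatectomy (columns, hours), with blue for lower, red for higher and a dot where the adjusted p was under 0.05. The 5 dots belong to Bdh1, Acaa1b and Eci2.

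The carnitine shuttle brings fatty acids into mitochondria. Cpt1a, which loads acyl groups onto carnitine and is the main control point of the pathway, had intensities of 4502 and 3002 in normal liver and 6292 and 5421 at 36 h. Its largest change was 0.66 at 36 h (SE 0.40, adjusted p = 0.425). At 12 h its 2 arrays were 7277 and 2666, the highest and the lowest of all 14. Cpt2, which takes the acyl group back inside the inner membrane, ranged from 1832 to 3656 over the 14 arrays, with a largest change of -0.48 at 72 h (adjusted p = 0.478). Neither passed at any time.

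The acyl-CoA dehydrogenases carry out the first oxidation, each on its own range of chain lengths, and hand electrons on through Etfa, Etfb and Etfdh. None of the 4 dehydrogenases passed at any time. Acadl, for long chains, was 3640 and 2814 in normal liver and 5281 and 5669 at 36 h, with no overlap, a change of 0.76 (SE 0.22, adjusted p = 0.0758). Acads, for short chains, had its largest change of -0.62 at 36 h (adjusted p = 0.227). Acadvl, for very long chains, ranged from 4476 to 7874, with a largest change of -0.49 at 72 h (adjusted p = 0.31). Etfa, a subunit of the electron transfer flavoprotein, was 7764 and 12149 in normal liver, 5437 and 5016 at 36 h, and 4776 and 6456 at 48 h. All 12 arrays after hepatectomy were below both normal arrays. Its change at 36 h was -0.89 (SE 0.25, adjusted p = 0.0695). Etfb, the other subunit, was 13246 and 23416 in normal liver, a difference wider than most changes of the list, and its largest change was -0.76 at 48 h (adjusted p = 0.304). Etfdh, which passes the electrons to ubiquinone, had its largest change of -0.69 at 72 h (adjusted p = 0.25).

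The later steps of the mitochondrial cycle also stayed below the threshold. Hadha and Hadhb, the subunits of the trifunctional protein for long chains, are neighbouring genes and had largest changes of -0.20 at 12 h (SE 0.23, adjusted p = 0.585) and -0.33 at 48 h (SE 0.22, adjusted p = 0.533). Hadha ran only from 3528 to 5035 over all 14 arrays, the narrowest relative range among the members, a highest to lowest ratio of 1.43. Echs1, the short-chain enoyl-CoA hydratase, was 4259 and 6744 in normal liver, 3520 and 2708 at 8 h and 3508 and 2639 at 12 h. The groups did not overlap, with changes of -0.78 (SE 0.27, adjusted p = 0.0936) and -0.81 (SE 0.27, adjusted p = 0.0748). Hadh, the 3-hydroxyacyl-CoA dehydrogenase, was 15280 and 17250 in normal liver and 8352 and 12555 at 12 h, a change of -0.66 (adjusted p = 0.113), and returned to 15802 and 16560 at 72 h. Acaa2, the mitochondrial thiolase, had its largest change of -0.58 at 36 h (adjusted p = 0.18). A dimmer probe set of Acaa2 read 13539 and 12127 on replicate 2 of the 8 and 12 h groups, both among the 4 arrays with a low 5′ to 3′ ratio, and 2926 to 9304 elsewhere, a pattern the brightest one did not have. Eci1 and Decr1, which handle double bonds, had largest changes of -0.40 at 36 h and -0.52 at 8 h (adjusted p = 0.354 and 0.217).

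Bdh1, which interconverts acetoacetate and 3-hydroxybutyrate, was the mitochondrial member that changed. Its intensity was 3430 and 4670 in normal liver, 2490 and 2756 at 4 h, 1872 and 1757 at 8 h, 1838 and 1762 at 12 h, 3407 and 2294 at 36 h, 2235 and 3248 at 48 h, and 2078 and 1993 at 72 h. All 12 arrays after hepatectomy were below both normal arrays, and the lowest were at 8 and 12 h. Bdh1 fell by 1.12 on the log2 scale at 8 h (SE 0.26, adjusted p = 0.0193) and by 1.13 at 12 h (SE 0.26, adjusted p = 0.016). At 72 h the change was -0.96 (adjusted p = 0.0881), and over the course, in a moderated F test of all 6 times, the adjusted p was 0.0658. The 8 h call was lost without normal replicate 2 (-0.90, adjusted p = 0.166), 8 h replicate 1 (-1.16, 0.0873) or 8 h replicate 2 (-1.07, 0.123). The 12 h call was lost without normal replicate 2 (-0.91, adjusted p = 0.136) or 12 h replicate 2 (-1.10, 0.0594). Without the 4 arrays of low ratio the changes were -1.07 (adjusted p = 0.176) and -1.10 (adjusted p = 0.139). A dimmer probe set of Bdh1 gave -0.79 at 8 h (adjusted p = 0.123) and -0.91 at 12 h (adjusted p = 0.0666).

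Acat1, the acetoacetyl-CoA thiolase of ketone body metabolism, was 9006 and 8263 in normal liver and 5971 to 9134 afterwards, and its brightest probe set did not pass at any time (largest change -0.46 at 72 h, adjusted p = 0.354). Its dimmest tested probe set disagreed. It was 894 and 1080 in normal liver, 497 and 400 at 8 h and 514 and 333 at 12 h, and fell by 1.05 (SE 0.26, adjusted p = 0.027) and by 1.14 (SE 0.26, adjusted p = 0.0156). It gave -0.91 (adjusted p = 0.191) and -0.86 (adjusted p = 0.177) without the 4 arrays of low ratio, and both calls were also lost without normal replicate 2 or replicate 2 of their own group, and that at 8 h without 8 h replicate 1. Of 21 tested probe sets of members beside the brightest, 2 passed at 1 time or more, this one and the second of Pex11a.

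**Figure D2:**
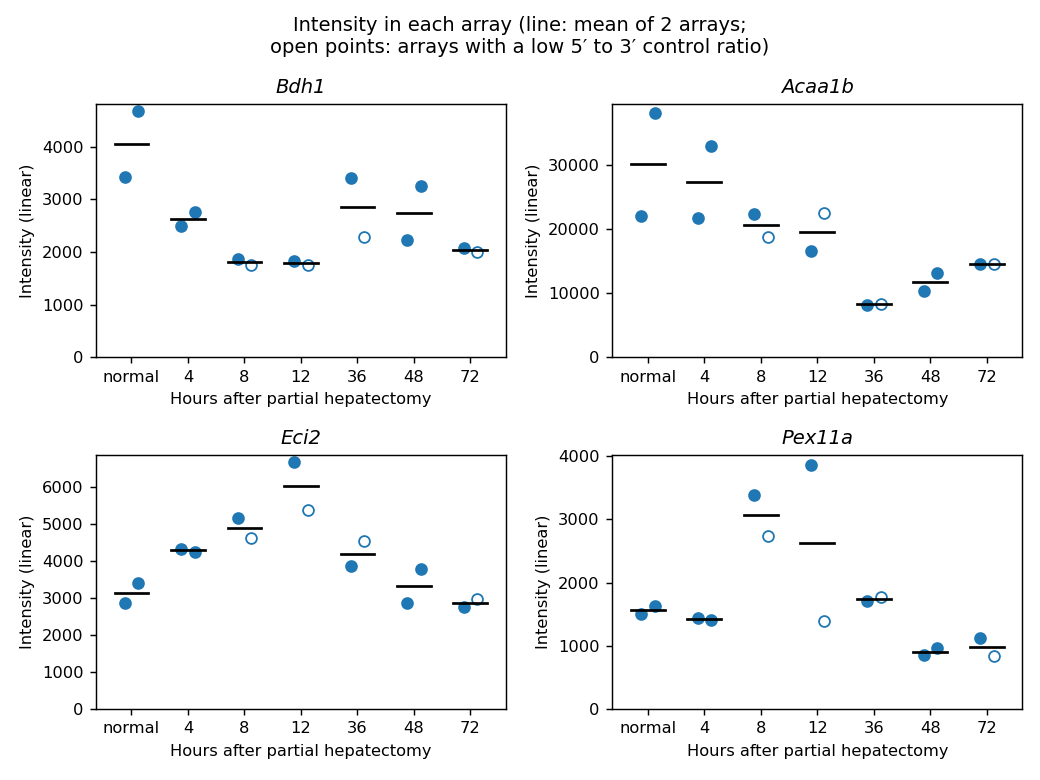
Intensity (linear axis from 0) of Bdh1, Acaa1b, Eci2 and Pex11a on each of the 14 arrays against hours after partial hepatectomy, with lines at the mean of 2 arrays and open points for the 4 arrays with a low 5′ to 3′ control ratio. Acaa1b is lowest at 36 h (8254 and 8352), Eci2 highest at 12 h (6674 and 5381), and the 12 h arrays of Pex11a lie far apart (3869 and 1397).

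Among peroxisomal members Acaa1b, a thiolase that closes the peroxisomal cycle, showed the largest change of the whole list. It was 22137 and 38135 in normal liver, 21741 and 32947 at 4 h, 22393 and 18807 at 8 h, 16694 and 22503 at 12 h, 8254 and 8352 at 36 h, 10400 and 13211 at 48 h, and 14626 and 14532 at 72 h. The 36, 48 and 72 h arrays all lay below every normal, 4, 8 and 12 h array. Acaa1b fell by 1.80 on the log2 scale at 36 h (SE 0.30, adjusted p = 0.00579), which is 3.48-fold, and by 1.31 at 48 h (SE 0.30, adjusted p = 0.0431). At 72 h the change was -0.99 (SE 0.30, adjusted p = 0.124). The hepatocyte marker sum was also below normal liver at 36 and 72 h, where the marker Apob overlapped normal liver, and on 1 array at 48 h. Its part in the falls of Acaa1b, Etfa and Fabp1 was not tested. The 36 h call was lost without normal replicate 2, the brighter normal array (-1.41, adjusted p = 0.0637), or 36 h replicate 2 (-1.81, adjusted p = 0.058), and without the 4 arrays of low ratio (-1.81, adjusted p = 0.153). The 48 h call held in 5 of the 14 fits that left out 1 array. It was lost without normal replicate 2 (-0.91, adjusted p = 0.398), 48 h replicate 1 (-1.13, 0.312) or 48 h replicate 2 (-1.48, 0.0798), and with adjusted p of 0.0666 to 0.0703 at an unchanged -1.31 without either array of the 8, 36 or 72 h group. Without the 4 arrays of low ratio the 48 h change was -1.31 (adjusted p = 0.17).

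Acaa1b and its paralog Acaa1a lie near each other on chromosome 9, and related copies can share signal on an array. Of the probe sets annotated to both genes, 2 were tested. They gave -1.53 (SE 0.23, adjusted p = 0.0039) and -1.55 (SE 0.26, adjusted p = 0.00617) at 36 h (-1.37, adjusted p = 0.113, and -1.40, adjusted p = 0.197, without the 4 arrays of low ratio), and -0.97 (adjusted p = 0.0568) and -1.04 (adjusted p = 0.0664) at 48 h. The brighter of them read 19667 and 30465 in normal liver and 9269 and 7519 at 36 h. The brightest probe set that names Acaa1a alone was dimmer than these, at 1170 and 639 in normal liver and 966 and 642 at 36 h. Its change was -0.13 (SE 0.33, adjusted p = 0.893). A second probe set of Acaa1a alone was 292 and 218 in normal liver and 228 and 234 at 36 h.

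Eci2, an enoyl-CoA isomerase that lets unsaturated fatty acids enter the cycle, rose at 12 h. It was 2864 and 3403 in normal liver, 4334 and 4244 at 4 h, 5165 and 4631 at 8 h, 6674 and 5381 at 12 h, 3870 and 4533 at 36 h, 2858 and 3793 at 48 h, and 2747 and 2965 at 72 h. The arrays at 4, 8, 12 and 36 h were all above both normal arrays, and those at 48 and 72 h overlapped them. The rise at 12 h was 0.93 (SE 0.23, adjusted p = 0.0199), and the change at 8 h was 0.64 (adjusted p = 0.098). The 12 h call was lost without normal replicate 1 (0.81, adjusted p = 0.0668), normal replicate 2 (1.05, 0.0578) or 12 h replicate 1 (0.77, 0.077), and without the 4 arrays of low ratio (1.08, 0.107).

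Pex11a, a membrane protein that promotes peroxisome division, was 1499 and 1626 in normal liver, 1446 and 1399 at 4 h, 3386 and 2740 at 8 h, 3869 and 1397 at 12 h, 1713 and 1775 at 36 h, 849 and 958 at 48 h, and 1125 and 841 at 72 h. Both 8 h arrays were above every normal array, and the 48 and 72 h arrays were below every other array. The change at 8 h was 0.94 (SE 0.36, adjusted p = 0.127), and it passed with the 4 arrays of low ratio as a block (1.20, SE 0.32, adjusted p = 0.0412) but not without them (1.09, adjusted p = 0.103). At 12 h Pex11a gave 1.28 without them (adjusted p = 0.0526). The change at 48 h was -0.75 (adjusted p = 0.376). The second probe set was 571 and 468 in normal liver and 1288 and 1531 at 8 h, with a rise of 1.35 (SE 0.33, adjusted p = 0.0243) at 8 h and 1.20 (adjusted p = 0.0353) at 12 h. It gave 1.23 at 8 h (adjusted p = 0.0827) and 1.83 at 12 h (adjusted p = 0.021) without the 4 arrays of low ratio. Its 8 h call was lost without normal replicate 2 or either 8 h array (adjusted p up to 0.162). Its 12 h call was lost without either array of the normal, 4, 8 or 72 h groups or 12 h replicate 1, which left 0.56 (adjusted p = 0.159).

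Over the course 3 of the 35 members passed the moderated F test (8.57%, against 13.1% of all probe sets), with 9 at an unadjusted p under 0.05. They were Acaa1b (adjusted p = 0.0101), Pex11a (0.0432) and Eci2 (0.0444), all peroxisomal, while 0 of 20 mitochondrial members passed, with 2 at an unadjusted p under 0.05. The call of Acaa1b held in 14 of 14 fits that left out 1 array, but not without the 4 arrays of low ratio (adjusted p = 0.175), where Eci2 had 0.314 and Pex11a 0.035. Those of Eci2 and Pex11a held in 2 of 14 each. Pex11a lost its call without any 1 array of the normal, 4, 8, 36, 48 or 72 h groups (adjusted p up to 0.144, without 8 h replicate 1), and Eci2 without any except 12 h replicate 2 and 48 h replicate 2 (up to 0.111, without 72 h replicate 1). With the replicate number as a block, the call of Eci2 was lost (adjusted p = 0.0529), as it was with the low-ratio arrays as a block (0.0596).

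The other peroxisomal members did not pass at any time. Ehhadh, the bifunctional enzyme of the classical peroxisomal cycle, was 3692 and 2754 in normal liver, 4354 and 5288 at 8 h, and 2142 and 2327 at 36 h. Its change was 0.58 at 8 h (SE 0.24, adjusted p = 0.158) and -0.50 at 36 h (SE 0.24, adjusted p = 0.299). Hsd17b4, the bifunctional enzyme for branched chains, was 6859 and 8928 in normal liver and 4569 to 6590 on all 12 later arrays, with no overlap and a largest change of -0.65 at 48 h (SE 0.21, adjusted p = 0.169). Scp2, a thiolase and lipid carrier, ranged from 19603 to 42062, with a largest change of -0.51 at 36 h (adjusted p = 0.328). Decr2, a dienoyl-CoA reductase, had its largest change of -0.66 at 72 h (adjusted p = 0.309). Crot, which makes carnitine esters of medium chains for export from peroxisomes, was 6426 and 5363 in normal liver, 3535 and 3755 at 12 h and 7866 and 8208 at 48 h. Its change was -0.68 at 12 h (SE 0.23, adjusted p = 0.0749) and 0.45 at 48 h (adjusted p = 0.409).

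The acyl-CoA thioesterases split acyl-CoA into free fatty acid and CoA, and Acot1 to Acot4 are neighbours on chromosome 12. These probe sets were dim, with means of 169 for Acot2, 185 for Acot3, 304 for Acot4 and 523 for Acot1. None passed. Acot3 ranged from 32.1 to 408 with an SE of 0.53, the widest of the list. A probe set annotated to both Acot1 and Acot2 did not pass either (0.28 at 8 h, SE 0.31, adjusted p = 0.595). Acot2 had its largest change of 0.69 at 12 h (adjusted p = 0.129).

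Of the members in other places, Fabp1 was 40457 and 46095 in normal liver and 26309 and 25103 at 36 h, with no overlap, a change of -0.75 (SE 0.23, adjusted p = 0.0953). A dimmer probe set of Fabp1 was 22365 and 12684 in normal liver and 17463 and 6425 at 36 h, and there the groups overlapped. Acsl5, an enzyme that activates fatty acids to acyl-CoA, had its largest change of -0.63 at 36 h (SE 0.27, adjusted p = 0.24). Vnn1, a pantetheinase of the CoA breakdown route, was 1750 and 1156 in normal liver, 1086 and 730 at 12 h, and 1932 and 2347 at 36 h. Its change was -0.64 at 12 h (SE 0.30, adjusted p = 0.171) and 0.56 at 36 h (SE 0.30, adjusted p = 0.347).

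**Figure D3:**
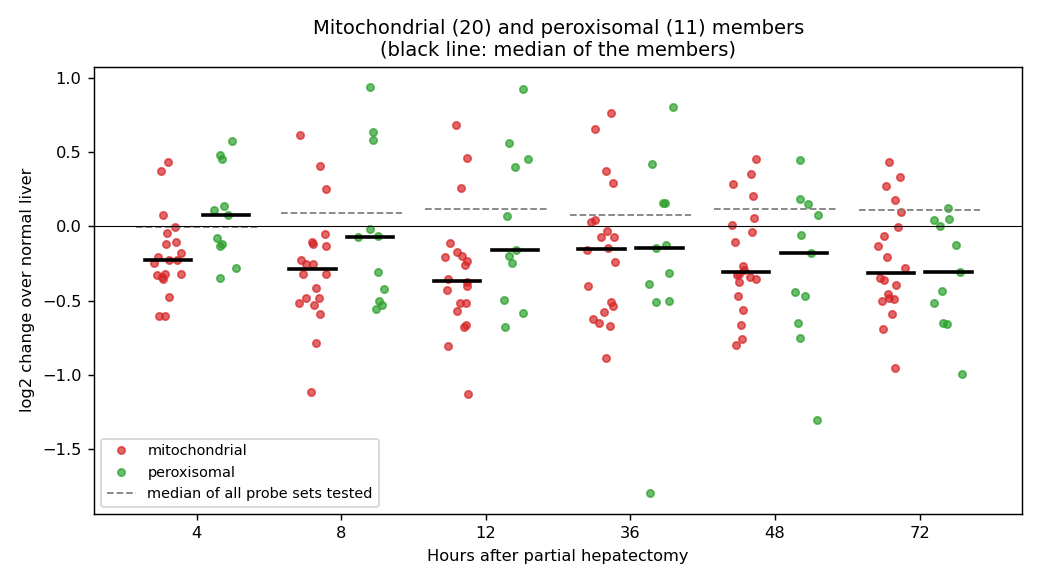
Log2 change over normal liver of each of the 20 mitochondrial (red) and 11 peroxisomal (green) members at 6 times after partial hepatectomy, with black lines at the median of the members and dashed lines at the median of all probe sets tested. The mitochondrial medians run from -0.37 to -0.15, and the lowest point is Acaa1b at 36 h, at -1.80.

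The mitochondrial medians were -0.23, -0.29, -0.37, -0.15, -0.31 and -0.31 at 4, 8, 12, 36, 48 and 72 h. Of the 20 mitochondrial members 17 were below 0 at 4, 8 and 12 h, 14 at 36 and 48 h and 15 at 72 h. The peroxisomal medians were 0.08, -0.07, -0.16, -0.14, -0.18 and -0.31. At 8 h peroxisomal members ran from -0.56 to 0.94 and mitochondrial members from -1.12 to 0.61. At 36 h these ranges were -1.80 to 0.80 and -0.89 to 0.76. The peroxisomal range was the wider at 36 and 48 h and the mitochondrial range at the other times. The difference between the compartments was not tested.

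The late times (36, 48 and 72 h) were compared with the early times (4, 8 and 12 h), a contrast in which the normal arrays cancel. Of the 35 members 7 passed (20%, against 15.9% of all probe sets), with 11 at an unadjusted p under 0.05. Crat, Acadm and Crot were higher at late times (all probe sets higher 9.91%), and Ehhadh, Acaa1b, Eci2 and Pex11a were lower (all probe sets lower 5.96%). The members' median was -0.08 and that of all probe sets 0.02. By compartment, 5 of 11 peroxisomal members passed, 4 of them lower, and 2 of 20 mitochondrial members passed, both higher. Their medians were -0.33 and 0.03. A dimmer probe set of Bdh1 passed (0.57, adjusted p = 0.0435), while its brightest did not (0.27, adjusted p = 0.265). Without the 4 arrays of low ratio the dimmer one gave 0.61 (adjusted p = 0.105).

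Acaa1b ran from 16694 to 32947 at the early times, with a median of 22067, and from 8254 to 14626 at the late times, with a median of 11806. The 6 late arrays were all below the 6 early arrays, a difference of -0.97 (SE 0.17, adjusted p = 0.00254). Pex11a ran from 1397 to 3869 early (median 2093) and from 841 to 1775 late (median 1042). Of its late arrays 4 were below all early arrays, a difference of -0.87 (SE 0.21, adjusted p = 0.0139), and its second probe set gave -0.97 (adjusted p = 0.0046). Eci2 ran from 4244 to 6674 early (median 4898) and from 2747 to 4533 late (median 3379). Of its late arrays 5 were below all early ones, a difference of -0.55 (SE 0.13, adjusted p = 0.0131). Ehhadh ran from 2897 to 5288 early (median 3744) and from 2142 to 3723 late (median 2355), and 4 late arrays were below all early ones. The difference was -0.55 (SE 0.14, adjusted p = 0.0195).

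Crot ran from 3535 to 6685 early (median 4031) and from 4905 to 8208 late (median 5875), with a difference of 0.54 (SE 0.13, adjusted p = 0.0163). Acadm, the medium-chain acyl-CoA dehydrogenase, ran from 4367 to 6949 early (median 5484) and from 6493 to 9877 late (median 7310), with a difference of 0.46 (SE 0.14, adjusted p = 0.047). Crat, which moves acetyl groups between CoA and carnitine, was dim, at 188 to 379 early (median 296) and 366 to 563 late (median 406). Its difference was 0.45 (SE 0.14, adjusted p = 0.0454). The late arrays above all early ones were 2 of 6 for Crot, 3 for Acadm and 4 for Crat, so the groups overlapped. A dimmer tested probe set of Crat did not separate late from early times. Its late arrays ran from 86 to 225.9, and all its early arrays lay within that range. Over 10 alternatives of processing the difference of Crat ran from 0.19 to 0.51, and it passed in 5.

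The calls of Acaa1b, Eci2 and Pex11a held in 14 of 14 fits that left out 1 array. Crot held in 11, not without 4 h replicate 2 (0.45, adjusted p = 0.0571), 8 h replicate 2 (0.50, 0.0534) or 36 h replicate 1 (0.50, 0.0571). Ehhadh held in 10, not without those 3 arrays (-0.52, adjusted p = 0.0624; -0.50, 0.0623; -0.53, 0.0588) or 72 h replicate 1 (-0.49, 0.0601). Acadm held in 4, those without either normal array, 4 h replicate 1 or 48 h replicate 1, and its adjusted p rose to 0.139 without 4 h replicate 2 (0.39). Crat held in 1, without 12 h replicate 1, and its adjusted p rose to 0.138 without 36 h replicate 1 (0.39). The members called were 3 without 4 h replicate 2 or 36 h replicate 1 and 4 without 8 h replicate 2 or 72 h replicate 1. Without the 4 arrays of low ratio 1 member passed, Pex11a (-1.11, adjusted p = 0.00993). There Acaa1b gave -0.94 (adjusted p = 0.0839), Eci2 -0.68 (0.0855), Crot 0.55 (0.182), Ehhadh -0.51 (0.191), Acadm 0.50 (0.272) and Crat 0.45 (0.206). Within those 4 arrays alone, 8 and 12 h were set against 36 and 72 h, without 4 and 48 h. The differences were -0.90 for Acaa1b, -0.65 for Pex11a, -0.44 for Eci2 and -0.61 for Ehhadh. They were 0.53 for Crot, 0.41 for Acadm and 0.54 for Crat. None passed (adjusted p from 0.262 to 0.484), and so few arrays leave little room for a call.

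**Figure D4:**
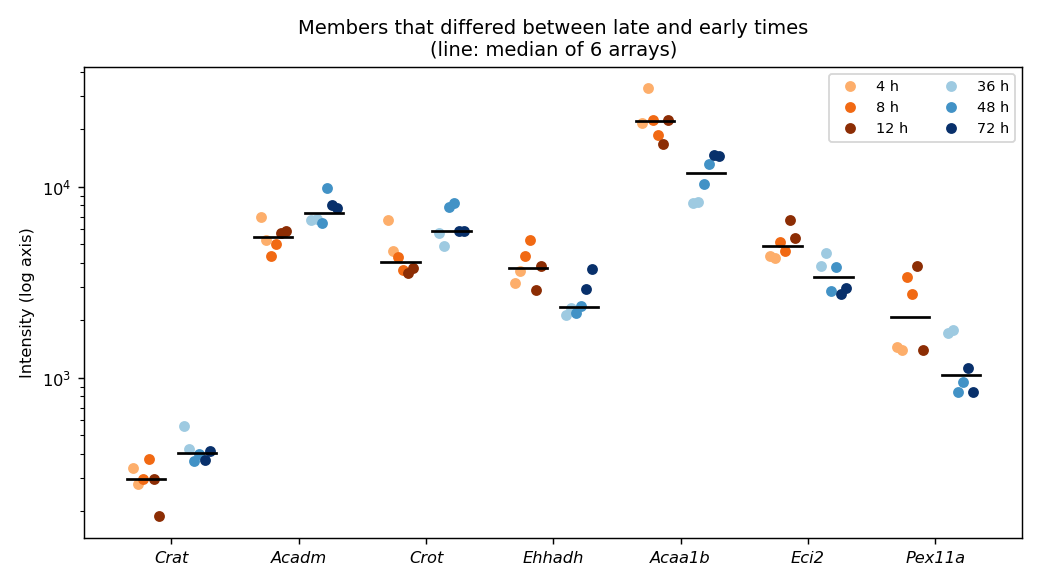
Intensity (log axis) on each of the 6 early arrays (4, 8 and 12 h, orange) and 6 late arrays (36, 48 and 72 h, blue) for the 7 members that differed between late and early times, with lines at the median of 6 arrays. In Acaa1b the early and late arrays do not overlap (16694 to 32947 against 8254 to 14626).

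Of 112 other genes of fatty acid use, among them transporters, regulators, lipid droplet proteins and accessory enzymes, 92 were measured and 85 tested. At 4 h 7 rose and 1 fell, at 8 h 10 rose and 11 fell, and at 12 h 10 rose and 18 fell. At 36 h 3 rose and 11 fell, at 48 h 0 rose and 2 fell, and at 72 h 0 rose and 3 fell. Their medians were -0.14, -0.42, -0.37, -0.33, -0.36 and -0.38. In time order the share that passed was 9.41, 24.7, 32.9, 16.5, 2.35 and 3.53%, against 2.42, 9.59, 12.2, 4.16, 2.32 and 2.49% of all probe sets, and so was near that background at 48 and 72 h. In all, 36 passed at 1 time or more. These counts depended on single arrays. Without 1 array they were 1 to 9 at 4 h (1 without normal replicate 2 or either 4 h array, 3 without normal replicate 1, 5 without either 8 h array). At 8 h they were 10 to 26 (10 without 8 h replicate 1, 11 without normal replicate 2 or 8 h replicate 2), and at 12 h 15 to 30 (15 without normal replicate 2). At 36 h they were 3 to 17 (3 without 36 h replicate 2, 4 without normal replicate 2, 8 without 36 h replicate 1). They were 0 to 7 at 48 h (0 without normal replicate 2 or either 48 h array, 7 without either 12 h array, 1 without any other array that moved it) and 0 to 6 at 72 h (0 without normal replicate 2 or 72 h replicate 2, 6 without either 12 h array). Without the 4 arrays of low ratio, 5, 6, 11, 2, 1 and 0 passed at the 6 times. Between late and early times 4 were higher and 15 lower (22.4% in all, against 15.9% of all probe sets, 9.91% higher and 5.96% lower), with a median of -0.07.

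Of these genes the 12 with the largest change among those that passed are named, and the 5 of them that rose did so by more than any member. Pdk4, a kinase that shuts off pyruvate oxidation, was 135 and 120 in normal liver, 5178 and 5816 at 4 h, and 1175 and 6183 at 12 h, a rise of 4.91 at 4 h (SE 0.57, adjusted p = 0.000686). Cidec, a lipid droplet protein, was below background in normal liver, at 36.4 and 31.0, and reached 2393 and 2125 at 8 h, at least 40.1-fold higher (adjusted p = 1.85e-05). The bound sets the mean of a bright group against the background of the dim arrays. Fgf21, a fasting hormone made by liver, was below background in normal liver, at 37.6 and 29.9, and at least 10.4-fold higher at 36 h, at 500.1 and 684 (adjusted p = 0.000951). Lpin1, a phosphatidate phosphatase and coactivator, rose by 1.72 at 8 h (SE 0.30, adjusted p = 0.00391) and fell by 1.45 at 48 h (adjusted p = 0.0234), a call lost without either normal array or either 48 h array (adjusted p up to 0.187). Fabp4, a fatty acid binding protein of adipocytes and macrophages, was 262 and 275 in normal liver and 1693 and 1580 at 8 h, a rise of 2.38 (SE 0.29, adjusted p = 0.000431). Of 6 adipose markers 4 were measured and Fabp4 is among them. Their sum, mostly Fabp4, was 345 to 463 in normal liver and 2104 to 2203 at 8 h. The 2 that were tested, Fabp4 and Retn, were higher at 8 and 12 h. Retn was 129 and 48.2 in normal liver and 309 and 490 at 8 h. Adipoq, which was not tested, was below background in normal liver, at 38.8 and 16.3, and above it at 8 h, at 80.2 and 110.2. It was also above background on both arrays at 4, 36 and 48 h, but on neither at 12 h. Lep, also not tested, was at or below background on all 14 arrays. The part of adipose tissue in these rises was not tested.

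The other 7 fell. Acacb, whose product malonyl-CoA inhibits Cpt1a, was 981 and 1279 in normal liver and, with neither 12 h array above background (73.7 and 22.6), at least 9.38-fold lower at 12 h (adjusted p = 0.00451). Hacl1, a peroxisomal lyase of branched-chain oxidation, fell by 2.17 at 12 h (SE 0.42, adjusted p = 0.00624), with arrays of 3701 and 1052 against 7858 and 10658. It gave -1.29 without the 4 arrays of low ratio (adjusted p = 0.0685) and the same size, still a call, without 12 h replicate 2 alone (adjusted p = 0.0111). Without 12 h replicate 1 it gave -3.05 (adjusted p = 9.41e-05), and without normal replicate 2 -1.95 (adjusted p = 0.0624). Nudt7, a peroxisomal CoA hydrolase, fell by 1.53 at 12 h (SE 0.22, adjusted p = 0.00122) and still by 1.12 at 72 h (adjusted p = 0.0173). Acsm3, a medium-chain acyl-CoA synthetase, fell by 1.67 at 12 h (adjusted p = 0.00122). Sirt3, a mitochondrial deacetylase, fell by 1.59 at 12 h (adjusted p = 0.00169), and Acad9, an acyl-CoA dehydrogenase relative needed for respiratory complex assembly, fell by 1.56 (adjusted p = 0.00624). Cyp4a12a, a fatty acid omega-hydroxylase, was 4124 and 3727 in normal liver and 1624 and 1103 at 72 h, a fall of 1.51 (SE 0.27, adjusted p = 0.0112). Without the 4 arrays of low ratio the falls of Nudt7 at 12 h (-1.36, adjusted p = 0.052) and 72 h (-1.11, 0.267), Acad9 (-1.28, 0.0577) and Cyp4a12a (-1.24, 0.203) no longer passed. The 72 h calls were also lost without normal replicate 2 or 72 h replicate 2, and that of Nudt7 without 72 h replicate 1. The first named changes of Pdk4, Cidec, Fgf21, Lpin1, Fabp4, Acacb, Acsm3 and Sirt3 passed without those 4 arrays.

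The following were chosen after their values were seen. Slc22a5, the plasma membrane carnitine transporter, was 575 and 675 in normal liver, 1704 and 1659 at 8 h, 2136 and 1397 at 12 h, and 356 and 239 at 72 h. It rose by 1.35 at 8 h (SE 0.28, adjusted p = 0.0106) and by 1.39 at 12 h (adjusted p = 0.00819), and was lower at late than at early times by -1.24 (SE 0.16, adjusted p = 0.000295). Its 8 h call was lost without the 4 arrays of low ratio (1.37, adjusted p = 0.0975) or either 8 h array (adjusted p = 0.0708 and 0.0716), while the other two passed without those 4. Slc25a20, the carnitine carrier of the inner membrane, did not pass (0.10 at 8 h, adjusted p = 0.858). Ppara was 1778 and 1070 in normal liver and 392 and 418 at 4 h, with no overlap, but its change of -1.64 had an SE of 0.64 (adjusted p = 0.259).

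**Figure D5:**
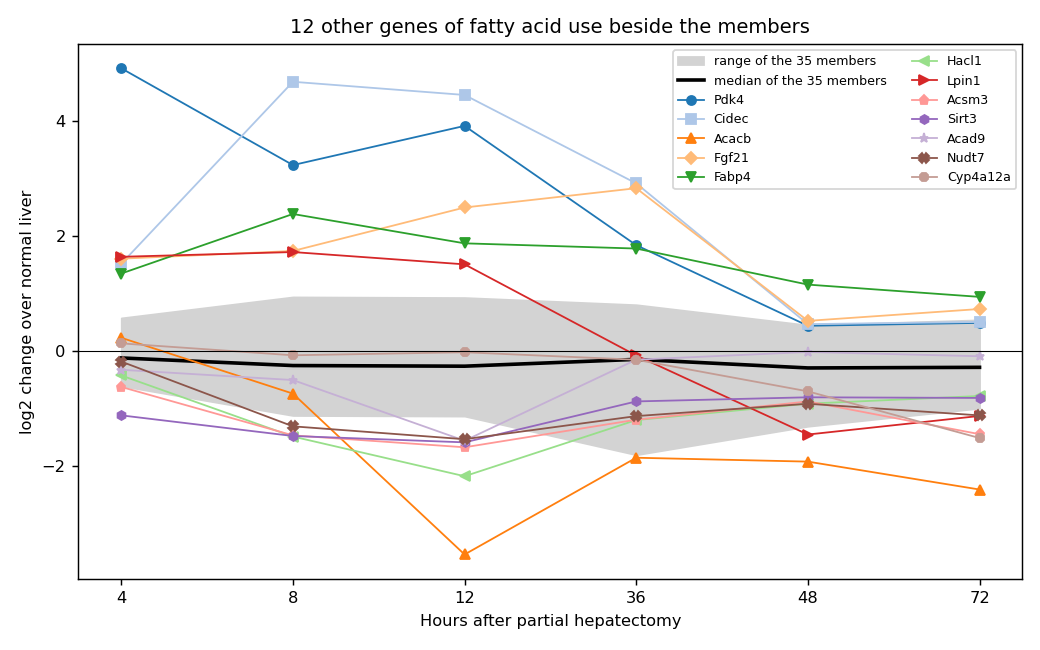
Log2 change over normal liver at 6 times after partial hepatectomy for 12 other genes of fatty acid use, beside the range (grey) and median (black line) of the 35 members. Pdk4 peaks at 4.91 at 4 h while the members' median stays between -0.29 and -0.12; points of Cidec, Fgf21 and Acacb rest on groups below background and are fitted values, not bounds.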

How the data were processed

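Arrays were 1-colour, in 7 groups of 2. The deposited values are linear intensities, 1 per probe set; the software behind them is not stated in the labels, beyond the authors' use of GeneSpring 7.2 with a 2-fold limit. The mean of each array, less its lowest and highest 2%, was 500.2 to 500.3, and this scaling was kept. Of 22690 probe sets, 64 were controls, 20380 name 1 gene in the array annotation, 691 several and 1555 none, and gene IDs of 20351 are in GRCm38.p6.

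To each intensity 56.8 (the 25th percentile) was added before log2, which understates changes of dim genes. Testing was limited to the 13576 probe sets whose mean reached the 40th percentile (128.8). A model of 7 groups was fitted over all 14 arrays in limma 3.58.1 (R 4.3.3; 7 residual and 5.07 prior degrees of freedom), with Benjamini-Hochberg adjustment per contrast. A signal counted as above background when it passed the 95th percentile of 27 bacterial controls on its array (43.56 to 138.3).

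Members and lists were chosen with earlier results of these data known. Of the 112 other genes, up to 12 that passed were named, by size of change. In data simulated for 36 h against normal liver, 31% of 100 probe sets raised by 1 on the log2 scale were recovered. Of 100 raised by 2, 90% were recovered, with 5 false calls among 13576. The simulated noise was normal and independent between probe sets, without low-ratio arrays, so these rates may not hold for the real arrays.

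The fits were repeated after quantile normalization, with 14.2 or 227.2 added, unfiltered or filtered at the 60th percentile, with a gene's probe sets averaged, on the compared groups alone, with the replicate number as a block, with the 4 arrays of low 5′ to 3′ ratio (under 0.2) as a block or left out, and without each array. The fit within these 4 arrays was added after the data were seen.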

Additional observations from a re-analysis of the deposited data

Results flagged for a closer look

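The change over normal liver differed between late (36, 48 and 72 h) and early times (4, 8 and 12 h) in 7 members, by limma's test of the difference itself. It was -0.97 on the log2 scale for Acaa1b, -0.87 for Pex11a, -0.55 for Eci2, -0.55 for Ehhadh, 0.54 for Crot, 0.46 for Acadm and 0.45 for Crat. The 4 negative values are all of peroxisomal members, and so is the positive value of Crot. These 7 are 20% of the members, against 15.9% of all probe sets. Without the 4 arrays of low ratio only Pex11a passed. Groups of 2 arrays are too small to look for a single array that stands apart.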

How the results depend on the processing

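No change of a member that passed turned direction under any alternative tried, but most counts at single times changed, and the cause was not tested. Some alternatives also use fewer arrays. Leaving out the 4 low-ratio arrays keeps 1 array at each of 8, 12, 36 and 72 h. A change at 4 or 48 h uses none of them, so there only its SE and adjusted p can move. The fit within those arrays sets 8 and 12 h against 36 and 72 h and leaves little room for a call. No member passed at 4 h under any of them. Quantile normalization gave 2 members at 8 h, 2 at 36 h and 5 over the course. The smaller pseudocount gave 0 at 48 h and 1 over the course, and the larger 2, 4, 4 and 1 at 8, 12, 36 and 72 h and 7 over the course. Without a filter 0 passed at 48 h and 1 over the course. The stricter filter gave 3 at 36 h and 6 over the course. Averaging the probe sets of a gene gave 2, 5 and 3 at 8, 12 and 36 h and 6 over the course. With the low-ratio arrays as a block 2 passed at 8 h, Bdh1 and Pex11a, 0 at 48 h, and 2 over the course, where Eci2 was lost (adjusted p = 0.0596). Without them 0 passed at 8, 12, 36 and 48 h, 1 over the course and 1 between late and early times, and within them 0 of the 7 late against early differences passed. With only the arrays compared 0 passed at 8, 12, 36 and 48 h. Leaving out 1 array gave 0 to 2 members at 8 h, 0 to 3 at 12 h, 0 to 2 at 36 and 48 h, 0 to 1 at 72 h, 1 to 3 over the course and 3 to 7 between late and early times. The replicate block kept the count of members called at each of the 6 times and between late and early times, and over the course replaced Eci2 (adjusted p = 0.0529) by Crot among 3 calls. In 21 pairs of groups the deviations of same-numbered arrays correlated at -0.185 to 0.527, above 0.1 in 9 and not in the rest, so the number was not taken to pair the arrays; all 4 low-ratio arrays are replicate 2. Over all probe sets the calls ran from 322 to 2189 at 12 h and from 81 to 843 at 36 h. The 2 arrays per group limit the precision.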
